A study of Mus musculus with 3 samples.

Results

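RNA was compared between cells positive for an αMHC:mCherry reporter (MHC) and cells negative for that reporter and for Cntn2:eGFP (NEG), with 1 library each. The comparison took the protein-coding genes with a normalised read count of 20 or more in the higher of both libraries, which were 15228 of the 22740 protein-coding genes and of the 39179 genes in the deposited table. Of the other 7512 protein-coding genes, 2474 had no read in either library. The cells came from a mouse embryonic stem cell line that carries Cntn2:eGFP and was transduced with a lentiviral αMHC:mCherry construct. All cells, NEG included, were treated with sodium nitroprusside, a nitric oxide donor, on day 4 of differentiation and were sorted by flow cytometry on day 25. The sort also gave Cntn2:eGFP-positive cells with dim αMHC:mCherry (GFP), whose value is set beside the others here and enters no count of the comparison. The mCherry reporter reads a viral copy of the αMHC promoter in 1 stem cell line, and with 1 library per population a difference between populations cannot be told apart from a difference between libraries. In RNA from sorted bulk cells, fewer cells of a type and less RNA per cell cannot be told apart.

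Working heart muscle couples an electrical impulse to contraction through calcium that is released from the sarcoplasmic reticulum and pumped back, and it draws its energy mostly from fatty acids burnt in mitochondria and buffered by creatine phosphate. Cells that make cartilage lay down type II collagen and aggrecan under the control of Sox transcription factors. In endochondral bone formation, hypertrophic cartilage with type X collagen is replaced by a type I collagen matrix that osteoblasts mineralise and in which osteocytes come to lie.

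The gene behind the sort reporter was read first. Myh6, which encodes the αMHC protein, had a normalised read count of 186924 in MHC, 3843 in NEG and 4694 in GFP. The ratio of MHC to NEG was 48.6-fold (95% interval 47.0 to 50.3), with intervals here and below covering counting error only. Cntn2, the gene behind the eGFP reporter, had 228 in MHC, 204 in NEG and 10045 in GFP, and MHC and NEG lay within 2-fold of each other. All 9 defining markers of heart muscle (Tnnt2, Tnni3, Actc1, Actn2, Myl7, Myh7, Nkx2-5, Ryr2 and Nppa) were at least 2-fold higher in MHC, by between 2.56-fold for Nkx2-5 and 52.1-fold for Nppa, where Actc1, Myh7 and Nppa share reads with overlapping genes. Their values summed to 124477 in MHC, 6004 in NEG and 10343 in GFP, so that NEG, although gated as negative, was not free of these transcripts. Neither library was made up of heart muscle transcripts alone. Col1a1, the major chain of type I collagen, stood at 2537347 in MHC, 2676319 in NEG and 397562 in GFP, and Col1a2 at 2029213 in MHC, 2054566 in NEG and 553571 in GFP.

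A gene was called higher in a library when log2((MHC + 1)/(NEG + 1)) was at least 1 in size, a rule of size with no test behind it, since there was 1 library per population. By this rule 1566 members (10.3%) differed, 821 (5.39%) higher in MHC and 745 (4.89%) higher in NEG. These shares of all members are the background to the counts of lists and families given below. The other 13662 lay within 2-fold, the median log2 ratio was -0.01, and the middle of the distribution ran from -0.31 to 0.29 at the quartiles. At 4-fold, 232 members (1.52%) were higher in MHC and 144 (0.946%) in NEG. At 10-fold the sides were less even, with 82 members higher in MHC and 18 in NEG. The lowest value that entered the comparison was 20.3 and the highest left out was 19.2. A member whose lower value was 9.5 or less had to be called, because its higher value had to reach 20, and 199 of the 1566 calls were of this kind. Of all 1566 calls, 341 fell on genes that overlap a gene with at least 25% as many reads as their own. Such a gene is named below as sharing reads, although neither labels nor files state how reads in overlapping genes were counted. The 19 housekeeping genes all lay within 2-fold.

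**Figure D1:**
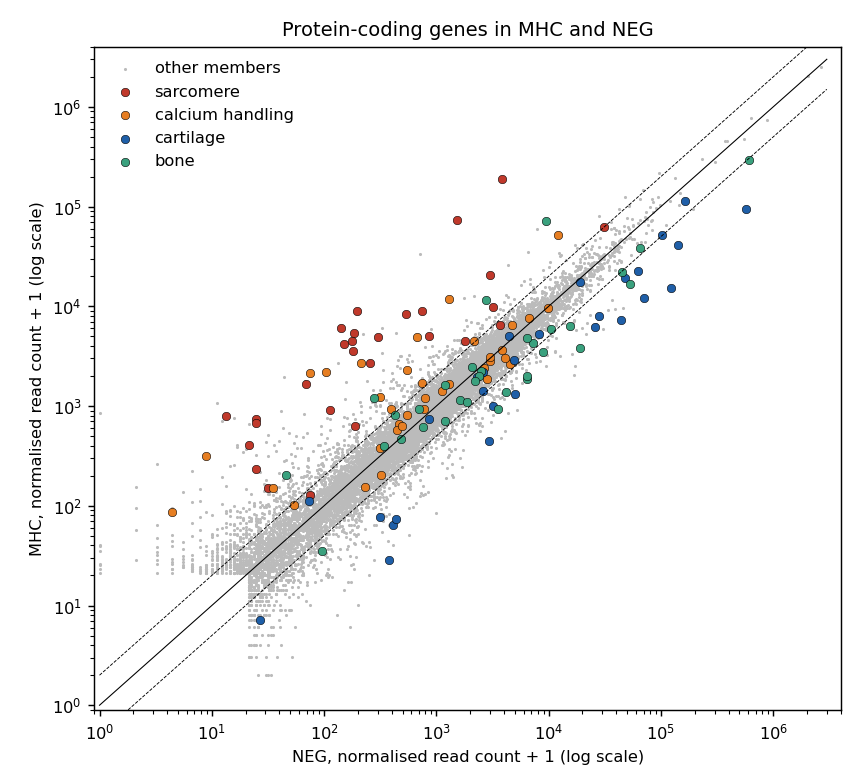
Normalised read count plus 1 of each of the 15228 protein-coding members in NEG (x axis) and MHC (y axis), both on log scales, with 1 point per gene. The solid line marks equal values and the dashed lines 2-fold; sarcomere and calcium handling genes lie on or above the line of equal values in most cases, and most cartilage and bone genes below it.

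The contractile genes set the scale of the comparison. Of 28 sarcomere genes, 25 (89.3%) were higher in MHC and none in NEG, with a median log2 ratio of 4.00. The sarcomere gene with the largest ratio was Lmod2, a leiomodin that lengthens actin filaments, at 799 in MHC, 12.4 in NEG and 37.5 in GFP. Its ratio was 64.3-fold (95% interval 35.7 to 129). Desmin (Des), the intermediate filament of muscle, stood at 9915 in MHC, 3181 in NEG and 2484 in GFP. In 22 of the 25 genes, GFP was also at least 2-fold below MHC. The proteins that tie the contractile lattice to the membrane followed in part. Of 33 measured genes of the muscle membrane and costamere, 11 were higher in MHC, none in NEG, and 22 lay within 2-fold, with a median of 0.76. Smpx, a small muscle protein of the costamere, stood at 759 in MHC, 22.6 in NEG and 43.9 in GFP, and Ankrd1, a stretch-responsive ankyrin repeat protein, at 6024 in MHC, 328 in NEG and 433 in GFP. Nrap, which anchors actin at the ends of new myofibrils, had 837 in MHC, 65.5 in NEG and 56.7 in GFP. Without the genes that share reads, 6 of this list remained higher in MHC.

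Calcium handling genes were higher in MHC in 14 of 36 cases, none was higher in NEG, and 9 of the 36 had a log2 ratio below 0. Genes of the sarcoplasmic reticulum lumen and its release unit were among those higher in MHC. Casq2, the calcium-storing protein calsequestrin of heart, was at 2126 in MHC, 74.6 in NEG and 312 in GFP, a ratio of 28.5-fold (95% interval 22.3 to 37.0). Trdn, which encodes triadin, the link between calsequestrin and the release channel, had 2209 in MHC, 104 in NEG and 206 in GFP, a ratio of 21.3-fold (95% interval 17.3 to 26.5). The release channel itself, the ryanodine receptor Ryr2, was measured at 2675 in MHC, 212 in NEG and 180.1 in GFP, a ratio of 12.6-fold (95% interval 10.9 to 14.7). In all 3 genes GFP was nearer to NEG than to MHC. The pump that returns calcium, Atp2a2 (SERCA), had 52284 in MHC, 12092 in NEG and 12890.1 in GFP, and both of its small inhibitors were higher in MHC. Of these, sarcolipin (Sln) stood at 312 in MHC, 7.91 in NEG and 92.3 in GFP, a ratio of 39.5-fold (95% interval 18.9 to 99.0) with a wide interval because NEG had few reads. Phospholamban (Pln) had 11958 in MHC, 1282 in NEG and 716 in GFP, but it lies within a longer gene and shares reads. The sarcalumenin gene Srl (4970.3 in MHC, 669.9 in NEG and 632 in GFP), the histidine-rich calcium-binding gene Hrc (1238 in MHC, 315 in NEG and 89.6 in GFP) and the sodium-calcium exchanger Slc8a1 (1714 in MHC, 738 in NEG and 911 in GFP) were also higher in MHC. Jph2, a junctophilin that holds the reticulum against the transverse tubule, was barely past the rule, at 4507 in MHC, 2153 in NEG and 1041 in GFP. Among the calcium channel subunits, Cacna1h, a T-type channel, stood at 942 in MHC, 393 in NEG and 236 in GFP and the accessory subunit Cacng6 at 86.1 in MHC, 3.39 in NEG and 11.9 in GFP. Cacna1c, the pore of the main L-type channel of heart, did not pass, with 806 in MHC, 551 in NEG and 1074 in GFP.

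Among potassium channel genes the median log2 ratio was near 0, and 5 of the 10 calls in MHC fell in a single family. Of 93 genes, 59 were measured, 10 of them higher in MHC and 4 in NEG, with a median of 0.05 and 34 genes under the minimum value. In that family, Kcnj, the inward rectifiers that set the resting potential and carry acetylcholine-activated and ATP-sensitive currents, 5 of 11 were higher in MHC and none in NEG. Kcnj5, a subunit of the acetylcholine-activated channel, was at 654 in MHC, 20.3 in NEG and 413 in GFP, a ratio of 32.2-fold (95% interval 20.2 to 54.6). Kcnj3, its usual partner, had 165 in MHC, 28.2 in NEG and 57.6 in GFP, sharing reads. Both genes had a higher value in GFP than in NEG. Kcnj2 and Kcnj12 encode the rectifiers of the resting potential of working muscle. Kcnj2 stood at 257 in MHC, 14.7 in NEG and 64.0 in GFP, a ratio of 17.5-fold (95% interval 10.1 to 33.4), and Kcnj12 at 236 in MHC, 23.7 in NEG and 18.3 in GFP, a ratio of 9.95-fold (95% interval 6.36 to 16.4). The subunits of ATP-sensitive channels differed in direction. The pore Kcnj11 (114 in MHC, 35.0 in NEG and 19.2 in GFP) and the sulfonylurea receptor Abcc8 (103 in MHC, 11.3 in NEG and 22.9 in GFP) were higher in MHC. The alternative pore Kcnj8 (82.0 in MHC, 154 in NEG and 16.5 in GFP) and receptor Abcc9 (122 in MHC, 220.3 in NEG and 37.5 in GFP) had higher values in NEG and lay within 2-fold. Of the transient outward current, the pore Kcnd3 stood at 231 in MHC, 89.2 in NEG and 255 in GFP and its accessory subunit Kcnip2 at 76.0 in MHC, 16.9 in NEG and 40.2 in GFP, and both were higher in MHC. The delayed rectifiers Kcnh2 (1528 in MHC, 854 in NEG and 269 in GFP) and Kcnq1 (386 in MHC, 304 in NEG and 276 in GFP) lay within 2-fold. The 4 genes higher in NEG were Kcnn4, Kcnq3, Kcnk6 and Kcnma1, none of them a principal channel of working heart muscle. Kcnn4, a calcium-activated channel, stood at 49.6 in MHC, 192 in NEG and 5.48 in GFP, and Kcnma1, the large-conductance calcium-activated channel, at 1498 in MHC, 3126 in NEG and 49.4 in GFP. In all 4 genes GFP was at least 2-fold below NEG.

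The pacemaker channel Hcn4 had 1002 in MHC, 311 in NEG and 6945 in GFP, higher in MHC than in NEG and highest in GFP. Connexin genes were the ion transport list with the lowest median, -1.10 over 7 measured of 20. Gja1, the connexin that couples ventricular muscle cells and is also made by osteoblasts, stood at 4559 in MHC, 9796 in NEG and 13023 in GFP, lowest of the 3 libraries in MHC. Gja4 stood at 81.0 in MHC, 374 in NEG and 6.40 in GFP, Gjc3 at 9.12 in MHC, 74.6 in NEG and 0 in GFP and Gjb2 at 5.06 in MHC, 39.5 in NEG and 1.83 in GFP, all higher in NEG. The connexin higher in MHC was Gja3, at 83.1 in MHC, 12.4 in NEG and 20.1 in GFP. Gjc1, a connexin of the conduction system, lay within 2-fold at 532 in MHC, 478 in NEG and 596 in GFP.

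**Figure D2:**
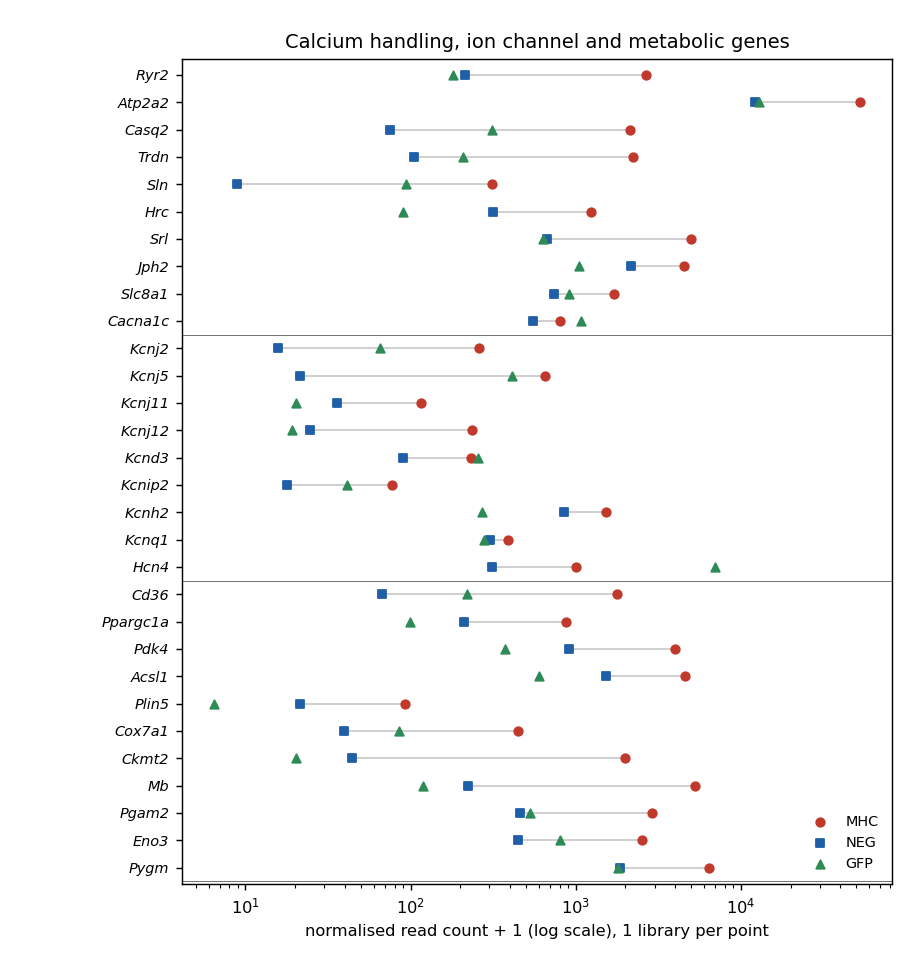
Normalised read count plus 1 (log scale, x axis) of calcium handling, ion channel and metabolic genes, with 1 point per library (MHC red circle, NEG blue square, GFP green triangle) and a grey line from NEG to MHC. The genes are a selection in which MHC lies to the right of NEG throughout. Genes of the same lists with the higher value in NEG, such as Kcnj8, Kcnma1, Pgam1 and Eno1, are not drawn. The ratio is 12.6-fold for Ryr2 and less than 2-fold for Cacna1c, Kcnh2 and Kcnq1, and Hcn4 has its highest value in GFP.

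The natriuretic peptide genes, markers of embryonic and stressed heart muscle, were both higher in MHC. Nppb had 76.0 in MHC, 6.78 in NEG and 43.0 in GFP, a ratio of 11.2-fold (95% interval 4.91 to 31.5). Nppa was at 766 in MHC, 14.7 in NEG and 59.4 in GFP, sharing reads. The proteases linked to their maturation had the opposite direction. Corin, which cleaves the atrial peptide precursor, stood at 1238 in MHC, 3163 in NEG and 519 in GFP, sharing reads, and Pcsk6, which activates corin, at 3197 in MHC, 12623 in NEG and 2355 in GFP. The adrenergic receptor Adrb1 (129.7 in MHC, 53.1 in NEG and 25.6 in GFP) was higher in MHC, while Chrm2, the muscarinic receptor of heart, lay within 2-fold at 2248 in MHC, 1777 in NEG and 1455 in GFP.

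Of 27 measured cardiac transcription factors, 11 were higher in MHC, 1 was higher in NEG and 15 lay within 2-fold. The largest ratios belonged to factors with low NEG values. Tbx3, a T-box repressor of the conduction system, had 111 in MHC, 6.78 in NEG and 16.5 in GFP, a ratio of 16.4-fold (95% interval 7.32 to 45.8). Prox1, a homeobox factor of heart muscle and lymphatic vessels, was measured at 434 in MHC, 29.4 in NEG and 74.0 in GFP, a ratio of 14.8-fold (95% interval 9.93 to 22.9). Irx4, the ventricular Iroquois factor, had 49.6 in MHC, 3.39 in NEG and 12.8 in GFP, a ratio of 14.6-fold (95% interval 4.73 to 73.5). In each, the few NEG reads make the interval wide. Nkx2-5 (139 in MHC, 54.2 in NEG and 23.8 in GFP), Tbx5 (614 in MHC, 285 in NEG and 219 in GFP) and Hand1 (346 in MHC, 160.4 in NEG and 78.6 in GFP), which specify heart muscle, passed the rule narrowly. Tbx20 did not, at 4116 in MHC, 2079.7 in NEG and 2465 in GFP. The single factor higher in NEG was Mef2c, which acts in heart muscle and also in hypertrophic cartilage, at 5042 in MHC, 10718 in NEG and 1093 in GFP, a ratio of 2.13-fold (95% interval 2.05 to 2.20). Irx5 differed in direction from Irx4 within the Iroquois family, at 846 in MHC, 4341 in NEG and 42.0 in GFP, a ratio of 5.13-fold (95% interval 4.76 to 5.54) in favour of NEG.

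Several genes of fuel use were higher in MHC, among them genes of fatty acid uptake, the kinase that restrains glucose oxidation, and muscle isoforms of mitochondrial enzymes. Of 46 fatty acid genes, 11 were higher in MHC and 2 in NEG, 37 had a log2 ratio above 0, and the median was 0.67. Cd36, the fatty acid transporter of the plasma membrane, stood at 1777 in MHC, 66.6 in NEG and 218 in GFP, a ratio of 26.7-fold (95% interval 20.6 to 35.2). Pdk4, the kinase that restrains glucose oxidation, stood at 3988 in MHC, 909 in NEG and 371 in GFP. Acsl1, which activates fatty acids with coenzyme A, stood at 4572 in MHC, 1515 in NEG and 595 in GFP. Cpt1b, the muscle carnitine palmitoyltransferase, had 2308 in MHC, 334 in NEG and 156 in GFP but shares reads. The regulators of this programme were higher as well. The coactivator Ppargc1a stood at 873 in MHC, 210.1 in NEG and 98.7 in GFP, the receptor Ppara at 250.2 in MHC, 96.0 in NEG and 95.1 in GFP and the receptor Esrrg at 213 in MHC, 38.4 in NEG and 44.8 in GFP. The 2 genes higher in NEG were the transporter Slc27a6 (20.3 in MHC, 85.9 in NEG and 119.7 in GFP) and the binding protein Fabp5 (1440.4 in MHC, 3097 in NEG and 21512 in GFP), and both were higher still in GFP.

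In the tricarboxylic acid cycle nearly all log2 ratios were above 0 and few were large. Of 19 genes, 18 had a log2 ratio above 0 and 3 passed the rule (Idh3a, Pdhb and Mdh1, the last sharing reads), with a median of 0.68. Citrate synthase (Cs), with 9009.8 in MHC, 4859.7 in NEG and 5483 in GFP, was typical and lay within 2-fold. Oxidative phosphorylation had the same form. Of 93 measured genes 86 had a log2 ratio above 0, the median was 0.40, and 3 were called. None of the 45 Nduf genes, which encode subunits and assembly factors of the first respiratory complex, was called, although 40 had a log2 ratio above 0. All 18 Atp5 genes of the ATP synthase had a log2 ratio above 0 and none was called. The calls were 2 muscle isoforms of cytochrome oxidase subunits and cytochrome c. Cox7a1, the heart and muscle isoform, stood at 444 in MHC, 38.4 in NEG and 84.1 in GFP, a ratio of 11.6-fold (95% interval 8.14 to 16.9), while Cox7a2, its counterpart in other tissues, stood at 2457 in MHC, 1989 in NEG and 2697 in GFP. Cox6a2, also a muscle isoform, was at 5389.7 in MHC, 433 in NEG and 156 in GFP, sharing reads. Cytochrome c (Cycs) had 3097 in MHC, 1323 in NEG and 1279 in GFP.

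Isoform pairs of glycolysis showed the same contrast. Pgam2, the muscle phosphoglycerate mutase, stood at 2908 in MHC, 458 in NEG and 527 in GFP, a ratio of 6.36-fold (95% interval 5.73 to 7.07), and Pgam1, the common form, at 14177 in MHC, 23378 in NEG and 7304 in GFP, within 2-fold with the higher value in NEG. Eno3, the muscle enolase, stood at 2531 in MHC, 446 in NEG and 807 in GFP, a ratio of 5.67-fold (95% interval 5.10 to 6.32), and Eno1, the common form, at 23373 in MHC, 39138 in NEG and 8346 in GFP, again within 2-fold with the higher value in NEG. Lactate dehydrogenase split likewise. Ldhb, the heart form, stood at 7015 in MHC, 2054 in NEG and 5313 in GFP and Ldha at 27256 in MHC, 40469.6 in NEG and 7629.7 in GFP. These were the 3 calls among 29 glycolysis and glucose uptake genes, whose median was 0.18. Energy buffering and storage had larger ratios, with 6 of 21 glycogen and creatine genes higher in MHC and 1 in NEG. Ckmt2, the creatine kinase of muscle mitochondria, stood at 1975 in MHC, 42.9 in NEG and 19.2 in GFP, a ratio of 46.0-fold (95% interval 33.4 to 65.2), while Ckb, the brain-type enzyme, stood at 3054 in MHC, 2972 in NEG and 1528 in GFP. Ppp1r3a, which targets a phosphatase to muscle glycogen, was measured at 369.7 in MHC, 19.2 in NEG and 46.6 in GFP, a ratio of 19.3-fold (95% interval 11.9 to 33.4). Pygm, the muscle glycogen phosphorylase, had 6399 in MHC, 1866 in NEG and 1796 in GFP. Myoglobin (Mb), the oxygen store of muscle, stood at 5291 in MHC, 221 in NEG and 119 in GFP, a ratio of 23.9-fold (95% interval 20.7 to 27.7). All 9 small heat shock protein and co-chaperone genes had a log2 ratio above 0, and 4 passed the rule. Hspb7, a small heat shock protein of heart, stood at 13037 in MHC, 4135 in NEG and 5269.6 in GFP and Hspb8 at 3228 in MHC, 1291 in NEG and 1101 in GFP, while Cryab lay within 2-fold at 6173 in MHC, 4891 in NEG and 6717 in GFP. The metallothioneins Mt1 (32282 in MHC, 12671 in NEG and 9226 in GFP) and Mt2 (23215 in MHC, 8946 in NEG and 5137 in GFP) and the plasma glutathione peroxidase Gpx3 (25043 in MHC, 9969 in NEG and 4092 in GFP) were higher in MHC.

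The sequence at the starts of the members was read for motifs of factors known in these tissues. RefSeq promoter windows of 300 bases on GRCm38.p6, from 250 bases before to 50 after the gene start, were found for 10930 of the 15228 members. The MEF2 box, a 10-base motif rich in A and T that is bound by the Mef2 family, was searched by its usual consensus on both strands, as were the other 9 motifs. It was in 8 of 161 windows (4.97%) of genes at least 4-fold higher in MHC, in 16 of 568 (2.82%) at 2-fold, in 3 of 489 (0.613%) of genes higher in NEG, and in 54 of all 10930 windows (0.494%). The motif overlaps the TATA box motif TATAAA in 19 of the 22 windows that hold both. TATAAA itself, on either strand, was in 21.7% of windows of genes 4-fold higher in MHC, 14.8% at 2-fold, 11.2% of genes higher in NEG and 7.51% of all windows. The CArG box of serum response factor was in 3.11% of windows of genes 4-fold higher in MHC and 1.36% of all. CATTCC, which Tead factors bind, was in 22.4% and 12.5% of the same windows, the E-box CAGCTG in 22.4% and 15.4%, and the GATA motif AGATAA in 16.8% and 6.45%. The Runx motif TGTGGT was in 24.2% and 12.2%, the AP-1 motif TGACTCA in 9.32% and 3.61%, and the cAMP response element TGACGTCA in 0.621% and 3.06%. At 2-fold, the shares in genes higher in MHC and in NEG were 1.94% and 1.43% for CArG and 18.5% and 13.5% for CATTCC. They were 19.7% and 18.6% for CAGCTG, 9.33% and 6.95% for AGATAA, and 15.1% and 13.9% for TGTGGT. For TGACTCA they were 5.81% and 5.73%, and for TGACGTCA 1.76% and 3.07%. ACAAAG, a Sox motif, was in 25 of 161 windows (15.5%) of genes 4-fold higher in MHC and 19 of 95 of those 4-fold higher in NEG, in 12.1% and 16.2% at 2-fold, and in 13.6% of all. A match is a run of letters in a window and not a bound site. The genes with a MEF2 box that were 4-fold higher in MHC were Mybpc3, Myoz2, Ppp1r3a, Xirp2 (sharing reads), Ttn, Hspb3, Gja3 and Esrrg, which span the sarcomere, glycogen metabolism, a heat shock protein, a connexin and a nuclear receptor. The windows of 3 of them are printed 5′ to 3′ on the strand of the gene, with 1 match to the MEF2 box in capitals, to show its place before the start. Mybpc3, the cardiac myosin-binding protein (6129 in MHC, 140.1 in NEG and 951 in GFP), was read at chr2:91117894-91118193 on the plus strand, and its match begins 90 bases before the start. Myoz2, a Z-disc protein that binds calcineurin (735 in MHC, 23.7 in NEG and 20.1 in GFP), was read at chr3:123034938-123035237 on the minus strand, with the match 33 bases before the start. Ppp1r3a was read at chr6:14755225-14755524 on the minus strand, with the match 100 bases before the start.
Mybpc3: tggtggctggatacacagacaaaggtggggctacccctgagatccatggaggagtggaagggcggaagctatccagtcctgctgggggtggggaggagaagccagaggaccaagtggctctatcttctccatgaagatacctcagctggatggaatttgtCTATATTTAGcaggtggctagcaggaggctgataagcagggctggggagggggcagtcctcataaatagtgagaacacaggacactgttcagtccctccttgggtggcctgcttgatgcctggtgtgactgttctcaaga
Myoz2: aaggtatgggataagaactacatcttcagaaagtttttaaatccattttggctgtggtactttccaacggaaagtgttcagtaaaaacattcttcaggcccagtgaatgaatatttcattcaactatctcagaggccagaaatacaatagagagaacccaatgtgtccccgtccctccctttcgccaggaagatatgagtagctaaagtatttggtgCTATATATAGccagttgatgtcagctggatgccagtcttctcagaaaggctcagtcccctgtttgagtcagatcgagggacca
Ppp1r3a: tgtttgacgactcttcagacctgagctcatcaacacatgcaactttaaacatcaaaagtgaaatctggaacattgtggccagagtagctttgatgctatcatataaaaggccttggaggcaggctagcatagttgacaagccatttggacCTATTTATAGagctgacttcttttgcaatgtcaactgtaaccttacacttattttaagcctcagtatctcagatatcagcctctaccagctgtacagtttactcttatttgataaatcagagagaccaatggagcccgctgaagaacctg

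Cartilage matrix genes were higher in NEG. Of 28 cartilage genes 17 (60.7%) were higher in NEG and none in MHC, 26 had a log2 ratio below 0, and the median was -1.74. Their values summed to 432219 in MHC, 1444932 in NEG and 43793 in GFP. Col2a1, the type II collagen of cartilage, had 94203 in MHC, 574523 in NEG and 6314 in GFP, a ratio of 6.10-fold (95% interval 6.06 to 6.14) in favour of NEG. Acan, the proteoglycan aggrecan, stood at 12063 in MHC, 71155 in NEG and 415 in GFP, a ratio of 5.90-fold (95% interval 5.78 to 6.02), and Hapln1, the link protein that binds aggrecan to hyaluronan, at 7289 in MHC, 43656 in NEG and 721 in GFP, a ratio of 5.99-fold (95% interval 5.84 to 6.14). The 3 genes differed by nearly the same factor, and each had a higher value in MHC than in GFP. Matn1, a matrilin of resting cartilage, had the largest ratio, at 27.3 in MHC, 377 in NEG and 15.5 in GFP, a ratio of 13.8-fold (95% interval 9.31 to 21.3). Lect1, the vessel-repelling chondromodulin, stood at 443 in MHC, 2942 in NEG and 21.0 in GFP and Ucma, a cartilage matrix protein, at 71.9 in MHC, 439 in NEG and 3.66 in GFP. Col10a1 and Ihh, genes of later cartilage stages, were on the same side, while Mmp13, given with the bone genes below, was higher in MHC. Col10a1, the collagen of hypertrophic cartilage, was at 15087 in MHC, 123637 in NEG and 1224 in GFP and shares reads. Ihh, the hedgehog ligand of prehypertrophic cartilage, had 994 in MHC, 3217 in NEG and 25.6 in GFP. The transcription factors of cartilage were not all called. Nkx3-2, a homeobox factor of early cartilage, was higher in NEG at 6.08 in MHC, 26.0 in NEG and 1.83 in GFP, a ratio of 4.28-fold (95% interval 1.69 to 12.8) with a wide interval because of few reads. Sox9 stood at 1968 in MHC, 2281 in NEG and 164 in GFP, Sox5 at 741 in MHC, 861 in NEG and 410.4 in GFP and Sox6 at 2194 in MHC, 2597 in NEG and 3723 in GFP, all within 2-fold. Some matrix genes also lay within 2-fold, among them Comp, a matrix protein that binds collagen fibrils, at 114515 in MHC, 164350 in NEG and 2723.9 in GFP. In each of the 17 called genes GFP was at least 2-fold below NEG.

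Bone genes went both ways. Of 32 measured bone genes 11 were higher in NEG and 4 in MHC, and the median was -0.62. Those higher in NEG included genes of the mineralising osteoblast. Ibsp, the bone sialoprotein, stood at 293616 in MHC, 608631 in NEG and 2413 in GFP. Ifitm5, a membrane protein of osteoblasts, stood at 1388 in MHC, 4153 in NEG and 51.2 in GFP and Phex, an endopeptidase of osteoblasts and osteocytes that governs phosphate, at 3515 in MHC, 8869 in NEG and 101 in GFP. Phospho1 and Smpd3, enzymes of matrix vesicles, were also higher in NEG but share reads. Runx2 (4864 in MHC, 6415 in NEG and 288 in GFP), Sp7 (5945 in MHC, 10476 in NEG and 154 in GFP) and Alpl (38345 in MHC, 64645 in NEG and 355 in GFP), the osteoblast regulators and alkaline phosphatase, lay within 2-fold with the higher value in NEG. The 4 bone genes higher in MHC were Spp1, Mmp13, Mepe and Tnfsf11. Spp1, which encodes osteopontin, was measured at 71092 in MHC, 9425 in NEG and 1133 in GFP, a ratio of 7.54-fold (95% interval 7.37 to 7.72). Mmp13, the collagenase of late hypertrophic cartilage and bone, had 11652 in MHC, 2776 in NEG and 24.7 in GFP, a ratio of 4.20-fold (95% interval 4.02 to 4.39). Mepe, a phosphoglycoprotein of osteocytes, stood at 1198 in MHC, 278 in NEG and 0.914 in GFP, a ratio of 4.31-fold (95% interval 3.76 to 4.97). Mepe had a single read in GFP. Tnfsf11, the RANKL cytokine that drives osteoclast formation, had 201 in MHC, 45.2 in NEG and 3.66 in GFP, a ratio of 4.44-fold (95% interval 3.15 to 6.40). Further osteocyte genes had the higher value in MHC without passing the rule. Dmp1, a matrix phosphoprotein, stood at 929 in MHC, 706 in NEG and 52.1 in GFP and Sost, the osteocyte inhibitor of Wnt signalling, at 811 in MHC, 426 in NEG and 9.14 in GFP, a ratio of 1.91-fold (95% interval 1.68 to 2.16).

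**Figure D3:**
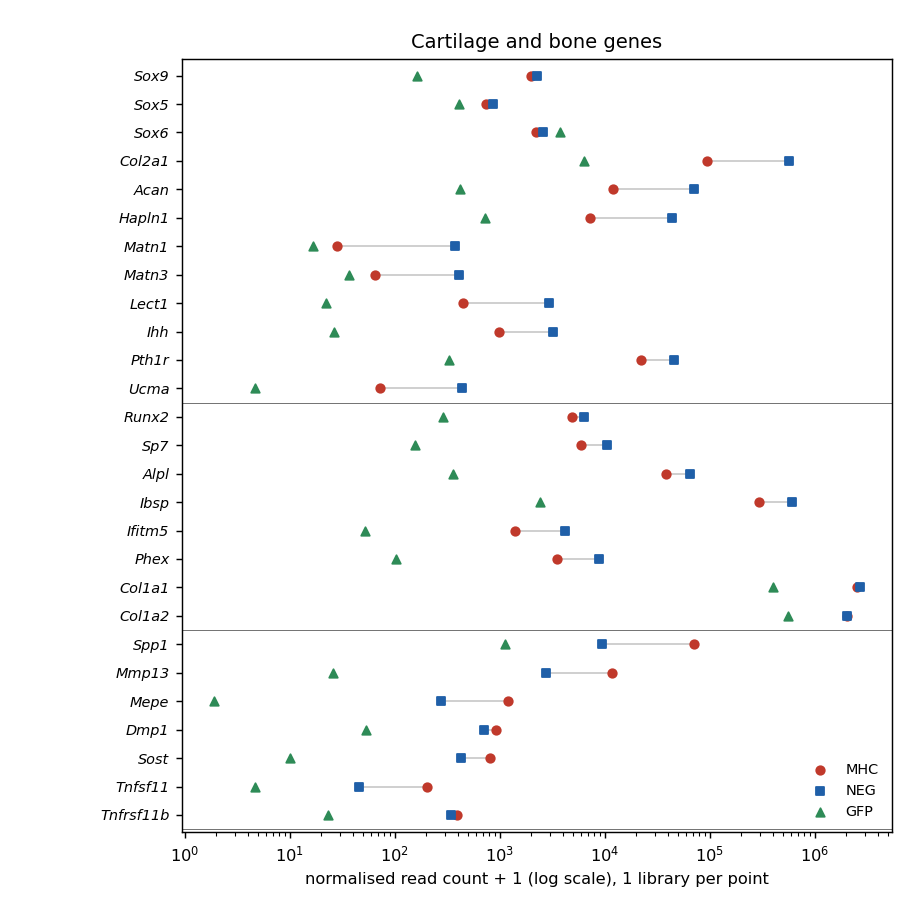
Normalised read count plus 1 (log scale, x axis) of cartilage genes (top), osteoblast genes (middle) and bone genes with the higher value in MHC (bottom), with 1 point per library (MHC red circle, NEG blue square, GFP green triangle) and a grey line from NEG to MHC. Col2a1, Acan and Hapln1 lie about 6-fold higher in NEG, Sox9 and Col1a1 nearly coincide, and Spp1, Mmp13, Mepe and Tnfsf11 lie to the right in MHC.

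Collagen genes beyond those of cartilage were also called, nearly all in NEG. Of all 44 collagen genes, those of cartilage included, 17 were higher in NEG and 1 in MHC, with a median of -0.37. All 3 Col9 genes and 5 of 11 fibrillar collagen genes were among those higher in NEG. The Col9 genes, Col10a1 and some of the fibrillar genes, such as Col2a1, were already counted with the cartilage genes above. Col1a1 (1.05-fold) and Col1a2 (1.01-fold) were nearly equal. Col5a1, a regulator of fibril width, stood at 93507 in MHC, 192685 in NEG and 21654 in GFP, and Col13a1, a transmembrane collagen, at 1886 in MHC, 6402 in NEG and 117 in GFP. The gene higher in MHC was Col18a1, a basement membrane collagen, at 7889.5 in MHC, 2955 in NEG and 2152 in GFP, sharing reads. The enzymes that process collagen leaned the same way, with 17 of 19 log2 ratios below 0 and 2 past the rule. Serpinh1, the collagen chaperone, stood at 65075 in MHC, 110964 in NEG and 46694 in GFP, within 2-fold, and Pcolce2, an enhancer of procollagen cleavage, at 907 in MHC, 5227 in NEG and 50.3 in GFP. Among elastic and adhesive matrix genes, elastin (Eln) stood at 9242 in MHC, 33576 in NEG and 24753 in GFP and the lysyl oxidase Loxl4 at 11589.7 in MHC, 36349 in NEG and 220.3 in GFP, both higher in NEG, and Spon2, a spondin, at 24.3 in MHC, 173 in NEG and 12.8 in GFP. Ltbp2, a fibrillin-binding protein, was higher in MHC than in NEG and highest in GFP, at 41023 in MHC, 17049.7 in NEG and 182624 in GFP. Small leucine-rich proteoglycans, which bind collagen fibrils, did not share the direction of cartilage matrix. Of 16 measured, 2 were higher in MHC and 1 in NEG, and the median was 0.13. Of the 16, 8 share reads, and without these 1 was higher in MHC and none in NEG. Podnl1 was at 1089 in MHC, 436 in NEG and 2.74 in GFP. Lumican (Lum) fell just short of the rule at 102856 in MHC, 51522 in NEG and 3550.2 in GFP. Among 43 metalloproteinase and inhibitor genes 5 (11.6%) were higher in MHC and 1 (2.33%) in NEG. Those in MHC were led by Mmp13, with Mmp3 (110.4 in MHC, 40.7 in NEG and 16.5 in GFP) and Adamts1 (29360.1 in MHC, 14143 in NEG and 47976 in GFP).

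The Serpina genes, a family of secreted protease inhibitors, were higher in MHC with 1 exception. Of 18 measured Serpina genes 17 were higher in MHC, none in NEG, and the remaining gene, Serpina9, had a log2 ratio of 0.59. Without the 6 Serpina genes that share reads, the count higher in MHC was 11. The family was 1 of 2, among 251 families of at least 8 members grouped by the stem of their symbols, in which 60% or more of the members were called in 1 direction. In the deposited coordinates (mm10) its measured genes lie side by side at chr12:103728156-104414329, with no other member between them. Of 19 members within 1000000 bases on either side, 4 were higher in MHC and 1 in NEG. Serpina3n, the most abundant and an acute-phase inhibitor of serine proteases, had 125836 in MHC, 48312 in NEG and 18889 in GFP, a ratio of 2.60-fold (95% interval 2.58 to 2.63). All 10 Serpina3 genes had log2 ratios between 1.09 and 1.77. Serpina3j stood at 3578 in MHC, 1049 in NEG and 365 in GFP and Serpina3c at 4259 in MHC, 1657 in NEG and 586 in GFP, and GFP was below NEG in both. The 5 Serpina1 genes, copies of the liver gene for alpha-antitrypsin, had low values. Serpina1a was measured at 38.5 in MHC, 0 in NEG and 0 in GFP. Against the floor of 3 reads in NEG it was at least 11.4-fold higher in MHC. The copies of Serpina1 and Serpina3 are nearly identical in sequence, and the table does not show how reads that match several copies were assigned, so that single genes of these groups are uncertain and their common direction is not independent evidence. Serpina5 (308 in MHC, 124 in NEG and 0 in GFP) and Serpina12 (309 in MHC, 132 in NEG and 61.2 in GFP) lie in the same cluster and do not belong to those groups. Of the 10 measured genes of the epithelial and endoderm list, which holds further liver genes, 2 were higher in MHC and 4 in NEG, with a median of -0.24. Its largest ratio was that of Apoa1, an apolipoprotein of liver and gut, at 83.1 in MHC, 3.39 in NEG and 0.914 in GFP. Alb, the albumin gene of liver, was under the minimum value at 2.03 in MHC, 1.13 in NEG and 2.74 in GFP. Other serpin families did not share the direction. Of 11 measured Serpinb genes, inhibitors that act inside cells, 5 were higher in NEG and none in MHC. Serpinb1a stood at 113 in MHC, 263 in NEG and 1589 in GFP, and Serpini1, neuroserpin, at 41.5 in MHC, 220.3 in NEG and 26.5 in GFP, a ratio of 5.30-fold (95% interval 3.77 to 7.62) in favour of NEG.

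**Figure D4:**
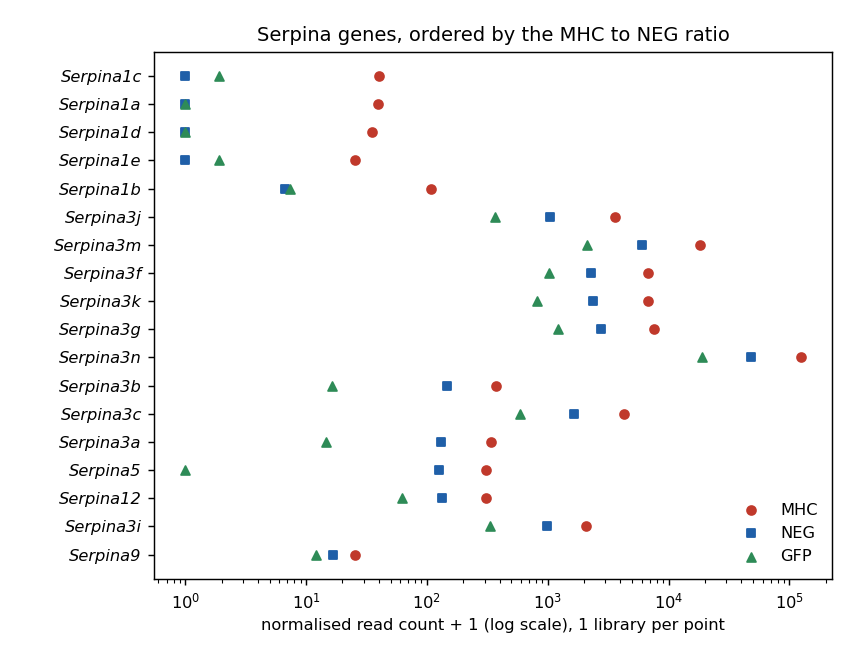
Normalised read count plus 1 (log scale, x axis) of the 18 measured Serpina genes, ordered by the ratio of MHC to NEG from the top, with 1 point per library (MHC red circle, NEG blue square, GFP green triangle). MHC is the highest library in every gene, the Serpina3 genes differ by similar ratios over a wide range of levels, and 4 Serpina1 genes have no read in NEG.

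Signalling genes were called in both directions. Of all members 5.39% were called higher in MHC and 4.89% in NEG, and some of the shares below lie near these. Among 42 Wnt pathway genes 1 (2.38%) was higher in MHC and 5 (11.9%) in NEG. Wnt10b, a ligand that promotes bone formation, stood at 134 in MHC, 734 in NEG and 32.0 in GFP, a ratio of 5.49-fold (95% interval 4.55 to 6.67) in favour of NEG. The Wnt inhibitor Dkk1 stood at 362 in MHC, 1708 in NEG and 289.8 in GFP, also higher in NEG, and Lgr6, a receptor for R-spondins, at 564 in MHC, 1383 in NEG and 111 in GFP. In the hedgehog pathway the ligand Ihh and the decoy receptor Hhip (1172 in MHC, 4039.6 in NEG and 61.2 in GFP) were higher in NEG, while the target Gli1 (1965 in MHC, 1985 in NEG and 29.3 in GFP) and the receptor Ptch1 (7878 in MHC, 8921 in NEG and 492 in GFP) were nearly equal. Of 62 BMP and TGF-beta genes 4 (6.45%) were higher in MHC and 7 (11.3%) in NEG. Gdf15, a stress-induced ligand, stood at 649 in MHC, 223 in NEG and 60.3 in GFP and the activin antagonist Fst at 2193 in MHC, 840.5 in NEG and 554 in GFP, both higher in MHC. Bmp8a, a ligand of bone, stood at 1633 in MHC, 3524 in NEG and 33.8 in GFP and Gdf6, a ligand of joints, at 246 in MHC, 677 in NEG and 388 in GFP. Of 31 FGF genes 5 (16.1%) were called on each side. These counts became 3 in MHC and 2 in NEG with a pseudocount of 10, and 4 and 1 with a minimum value of 100. Fgf10, made by mesenchyme and by heart progenitors, stood at 665 in MHC, 165 in NEG and 125 in GFP, a ratio of 4.03-fold (95% interval 3.37 to 4.86), and Fgf18, a ligand of the growth plate, at 135 in MHC, 300.5 in NEG and 448 in GFP. Of the binding proteins of insulin-like growth factors, Igfbp2 was higher in MHC at 34629 in MHC, 12483 in NEG and 10892 in GFP, and Igfbp5, a binding protein abundant in bone, was higher in NEG at 9613 in MHC, 45772 in NEG and 12579 in GFP, a ratio of 4.76-fold (95% interval 4.66 to 4.87). Igfbp3 stood at 2842 in MHC, 8368 in NEG and 6087 in GFP.

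Of the epidermal growth factor ligands, both epiregulin and Hbegf were higher in MHC, with epiregulin (Ereg) at 826 in MHC, 179.6 in NEG and 19.2 in GFP, a ratio of 4.60-fold (95% interval 3.87 to 5.48), and Hbegf at 1417 in MHC, 547 in NEG and 97.8 in GFP. Of 19 Notch genes 3 (15.8%) were higher in NEG and none in MHC. Heyl, a Notch target of smooth muscle and pericytes, stood at 37.5 in MHC, 256 in NEG and 5.48 in GFP, a ratio of 6.84-fold (95% interval 4.82 to 9.97), and Jag2, a ligand, at 560.1 in MHC, 1147 in NEG and 412 in GFP. The cAMP and cGMP genes were also read, although all cells had received the nitric oxide donor and the comparison cannot show its effect. Of 57 measured, 1 (1.75%) was higher in MHC and 5 (8.77%) in NEG. Akap6, an anchor of protein kinase A in heart muscle, had 833 in MHC, 397 in NEG and 188 in GFP. Prkg2, a cGMP-dependent kinase of growth plate cartilage, stood at 636 in MHC, 1704 in NEG and 245 in GFP, and Nos2, the inducible nitric oxide synthase, at 62.8 in MHC, 172 in NEG and 2.74 in GFP. Guidance genes had 5 calls in MHC (7.81%) and 9 in NEG (14.1%) among 64. Slit1 stood at 148 in MHC, 19.2 in NEG and 17.4 in GFP and the netrin Ntn1 at 632 in MHC, 286 in NEG and 107 in GFP, both higher in MHC, while the netrin receptor Unc5b stood at 6023 in MHC, 19676 in NEG and 1537 in GFP and the ephrin receptor Epha8 at 191 in MHC, 1409.8 in NEG and 12.8 in GFP, a ratio of 7.36-fold (95% interval 6.31 to 8.63) in favour of NEG. Among 46 measured chemokine and cytokine genes 9 were higher in MHC and 6 in NEG. Cx3cl1, or fractalkine, stood at 3387 in MHC, 1170.3 in NEG and 189 in GFP, Cxcl14 at 775 in MHC, 148 in NEG and 439 in GFP and the scavenging receptor Ackr3, higher in NEG, at 1820.2 in MHC, 4125 in NEG and 3282 in GFP. Of the immediate early genes, Fosl1 stood at 265 in MHC, 50.8 in NEG and 64.9 in GFP and Nr4a1 at 42155 in MHC, 20109 in NEG and 44827 in GFP, both higher in MHC, and Klf2 at 2214 in MHC, 5151 in NEG and 1380.2 in GFP, higher in NEG.

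Marker lists of other cell types were read in both libraries. Fibroblast genes were at a like level, with 18 of 20 within 2-fold, a median of 0.21 and sums of 5824409 in MHC, 5747899.7 in NEG and 1886226 in GFP. The 2 higher in NEG were Dpt, or dermatopontin (1146 in MHC, 2567 in NEG and 41.1 in GFP), and Pi16, a marker of adventitial fibroblasts (82.0 in MHC, 332 in NEG and 75.9 in GFP). None of the 15 measured epicardial and mesothelial genes passed the rule, and their sums were 22221 in MHC, 20788 in NEG and 264299 in GFP. Smooth muscle genes were divided. The 5 higher in MHC (Casq2, Pln, Ldb3, Myocd and Des) are also expressed in heart muscle, and the 3 higher in NEG were Myh11, the smooth muscle myosin (1414 in MHC, 3989 in NEG and 192 in GFP), and the pericyte genes Rgs5 (135 in MHC, 410.1 in NEG and 5.48 in GFP) and Cspg4 (5968 in MHC, 30238 in NEG and 388 in GFP). Of 22 endothelial genes 9 were under the minimum value. The 13 measured had 2 calls on each side and a median log2 ratio of 0.02. Kdr, a defining receptor and 1 of the 2 higher in NEG, had 59.8 in MHC, 195 in NEG and 84.1 in GFP. Tendon genes lay within 2-fold in all 9 cases. Of 42 DNA replication and mitosis genes 36 lay within 2-fold, 5 (11.9%) were higher in MHC and 1 (2.38%) in NEG. The bone genes summed to 506071 in MHC, 890460.2 in NEG and 42088 in GFP. With the cartilage sums given above, skeletal transcripts were abundant in MHC as well as in NEG, and their part in the other differences was not tested. Of 18 pluripotency genes 13 were under the minimum value, and of the other 5, 3 were higher in MHC and 1 in NEG. Those in MHC were Tbx3, given above, Zfp42 and Tfcp2l1 (641 in MHC, 319.7 in NEG and 2910.4 in GFP, highest in GFP), and the gene in NEG was Klf2, given above. Zfp42, also called Rex1, was at 709 in MHC, 11.3 in NEG and 7.31 in GFP, a ratio of 62.8-fold (95% interval 33.9 to 131), while Pou5f1 had 8.10 in MHC, 9.04 in NEG and 7.31 in GFP and Nanog 6.08 in MHC, 10.2 in NEG and 4.57 in GFP, both under the minimum value.

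**Figure D5:**
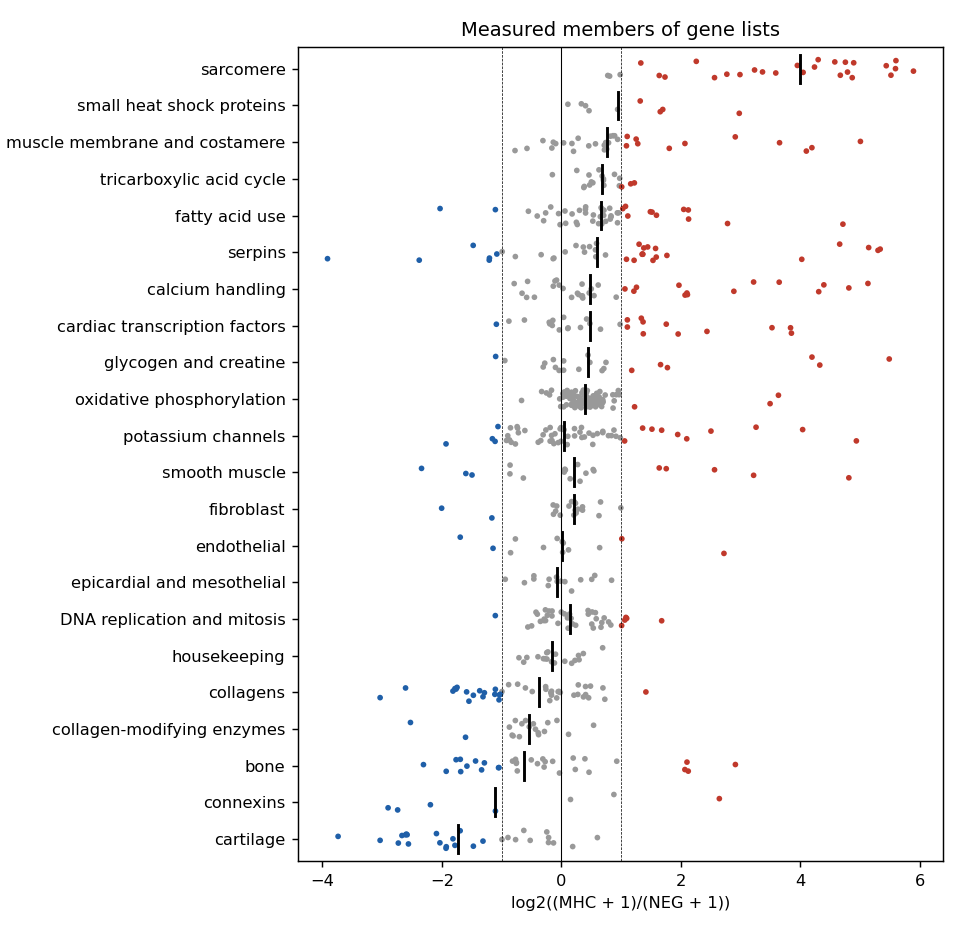
log2((MHC + 1)/(NEG + 1)) of the measured members of 22 gene lists (x axis), with 1 point per gene (red, called higher in MHC; blue, called higher in NEG; grey, within 2-fold) and a black bar at each list's median. Dashed lines mark 2-fold; the median is highest for sarcomere genes at 4.00 and lowest for cartilage at -1.74, and housekeeping genes lie between the dashed lines.

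The rank order of members with a value of 100 or more and no shared reads held genes outside these lists. Predicted gene models and clone names, known by their symbols, were left out of this order. Of the 15 with the highest ratios, 12 were genes of the heart muscle, channel or energy lists. The others were Chia, Zfp42 and Tecrl. Chia, an acidic chitinase at chr3:106113229-106132120 (mm10), led the order at 1078 in MHC, 10.2 in NEG and 4.57 in GFP, a ratio of 106-fold (95% interval 55.6 to 232). Tecrl, an enzyme-like protein of the endoplasmic reticulum of heart muscle, had 224 in MHC, 5.65 in NEG and 15.5 in GFP. Of 6 measured Mylk and Alpk kinase genes, 4 were higher in MHC and none in NEG. Mylk3, the cardiac myosin light chain kinase, stood at 2804 in MHC, 219 in NEG and 732 in GFP, a ratio of 12.8-fold (95% interval 11.1 to 14.9), and the alpha-kinase Alpk3 at 529.7 in MHC, 47.4 in NEG and 64.9 in GFP. Among 43 measured Trim genes 5 were higher in MHC and 2 in NEG. Fbxo40, a muscle ubiquitin ligase subunit, stood at 606 in MHC, 41.8 in NEG and 17.4 in GFP, and Trim55, a sarcomeric ring-finger protein, at 504 in MHC, 55.4 in NEG and 116 in GFP. Rpl3l, the muscle form of a ribosomal protein, was the only call among 74 ribosomal protein genes, at 57.7 in MHC, 10.2 in NEG and 10.1 in GFP. Penk, the enkephalin precursor, was abundant and higher in MHC, at 35154 in MHC, 6511 in NEG and 461 in GFP. The lowest ratio in this order belonged to C1qtnf3, a secreted protein first known from growth plate cartilage, at chr15:10952332-10980150 (mm10). It had 5.06 in MHC, 171 in NEG and 22.9 in GFP, a ratio of 33.7-fold (95% interval 14.1 to 105) in favour of NEG. Pde6h, a phosphodiesterase subunit of cone photoreceptors, stood at 9.12 in MHC, 198 in NEG and 11.9 in GFP, and Slco2b1, an organic anion transporter, at 49.6 in MHC, 567 in NEG and 17.4 in GFP. The 2 most abundant of the 15 genes were Cdsn, or corneodesmosin, at 2535 in MHC, 17319.7 in NEG and 451 in GFP, and Ptprz1, a receptor phosphatase, at 2031 in MHC, 16789.9 in NEG and 3474 in GFP. Clec3a, a lectin of cartilage, was measured at 246 in MHC, 1684 in NEG and 58.5 in GFP.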

How the data were processed

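Per the labels' protocols, sorted cells gave RNA for TruSeq libraries, which were read from 1 end over 50 bases. The submitters' processing notes name the build mm10, STAR 2.3.0e, DESeq2 1.2.10, bedtools 2.17.0 and FastQC 0.11.2, and the use made of each is not stated in them. The authors deposited a signal value for each gene in each library, which is its number of reads over a size factor of that library and is called normalised read count here. All values were whole multiples of the value of 1 read (1.01 in MHC, 1.13 in NEG and 0.914 in GFP; 100% of values, to within 0.01 of a read). In that order the recovered reads were 52826956, 47289405 and 52109065. Neither labels nor files state how the authors counted reads in overlapping genes or whether strand was used. Overlaps were taken from the deposited gene coordinates, over which such genes could share reads.

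From these values, log2 ratios with a pseudocount of 1, which understates the differences of low genes, were computed, and folds are ratios of the values themselves. Exact 95% Clopper-Pearson intervals of a fold come from the binomial distribution of the recovered reads given their sum and were computed with Python 3.11.15, pandas 2.3.3 and scipy 1.17.1. A single library per group leaves no spread to estimate, so the recovered reads were put through no count test, which thus called no gene, and there is no p-value. Intervals and the floor of 3 reads cover counting error only, since no molecular identifiers tell apart reads copied from the same molecule. The ratio and interval steps were tested on simulated data. The simulated reads carried counting error only, which the intervals assume, and no spread between libraries or cultures. Scaling with TMM (edgeR 4.0.16, normalization only), other pseudocounts, minimum values and folds were alternatives.

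The members and all 64 gene lists (2220 entries) were chosen with earlier results of these data known. Named genes were the 15 highest and 15 lowest ratios at a value of 100 or more without shared reads, the members of lists with the largest ratios or values or of lists described in full, and families of 8 or more members with 60% or more called in 1 direction. Predicted gene models and clone names were left out of the 15 highest and 15 lowest ratios. Of the genes named, Abcc8, Abcc9, Alpk3, Asb2, Asb11, Fbxo40, Mylk3, Penk, Rpl3l and Trim55 fall outside this rule and were chosen after their values were seen. Some genes of the lists enter their counts and are not reported here by name.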

Additional observations from a re-analysis of the deposited data

Results flagged for a closer look

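Genes that are not protein-coding were outside the comparison. Of 1220 such genes with a value of 100 or more and no shared reads, 2 were at least 4-fold higher in MHC than in NEG. Gm24442, a miscellaneous small RNA gene at chr6:4382878-4383204 (mm10), had 212 in MHC, 6.78 in NEG and 55.8 in GFP, a ratio of 31.2-fold (95% interval 14.1 to 86.1, counting error only). Gm11514, a pseudogene at chr11:95176813-95177244 (mm10), had 255 in MHC, 40.7 in NEG and 14.6 in GFP, a ratio of 6.28-fold (95% interval 4.41 to 9.17). Both were picked out because a signal above that of NEG lay in genes the comparison does not use.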

How the results depend on the processing

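The count of genes higher in MHC was 821. It became 2125 with no minimum value, 531 with a minimum of 100 and 232 at 4-fold. The count of genes higher in NEG was 745 and became 1888, 487 and 144 under the same settings. Of the potassium channels, the members higher in MHC went from 10 to 20 with no minimum value, and serpin genes higher in MHC from 17 to 11 without genes that share reads. These counts move by the construction of the settings, which admit more or fewer genes. A pseudocount of 10, scaling to total reads, TMM scaling and leaving out genes that share reads kept both main counts within 1.5 times. Of 1653 single genes, each put under 3 scalings or pseudocounts, none called by the rule changed direction. These settings shift all ratios alike or shrink them, so that a reversed call was hardly possible. Sign changes of genes within 2-fold were not counted. Over all settings, 41 values fell under the rule, 39 of these with the pseudocount of 10, and 4 rose above it. The median of all genes moved by less than 0.02 on the log2 scale. Of 768 list counts under alternatives, 659 stayed within 1.5 times and 109 did not. No paired analysis was possible because each population had a single library. No library could be left out for the same reason, and the spread between cultures is unknown.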

Other observations

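Clustered histone genes had the higher value in NEG in 31 of 36 measured cases, with 12 called higher in NEG, none in MHC and a median of -0.56. The calls were concentrated in the Hist2 cluster, where 8 of 9 genes were higher in NEG, while none of the 14 Hist1h2b genes was called. Hist2h3c2, a gene for histone H3, had 7.09 in MHC, 129 in NEG and 75.9 in GFP. Histone copies are nearly identical in sequence and 8 of the 36 share reads, so single genes are uncertain. Most histone messages lack a poly(A) tail. The 42 DNA replication and mitosis genes lay within 2-fold in 36 cases, with 5 (11.9%) higher in MHC and 1 (2.38%) in NEG. Neither point was tested as a cause of the histone difference.

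The Ugt1a genes, which encode enzymes that attach glucuronic acid, were all 9 higher in NEG, with log2 ratios between -1.11 and -1.06. They share exons and reads at a single locus and amount to 1 measurement. Asb genes, substrate adaptors of ubiquitin ligases, were higher in MHC in 6 of 15 cases and in none higher in NEG. Asb2, an adaptor known from muscle, had 1462 in MHC, 312 in NEG and 166 in GFP, and Asb11 had 525 in MHC, 92.6 in NEG and 35.6 in GFP, a ratio of 5.66-fold (95% interval 4.48 to 7.24). In the cytochrome P450 family 10 of 36 were higher in MHC and 2 in NEG. Cyp4f39, a fatty acid hydroxylase of skin, was among the latter, with 39.5 in MHC, 411 in NEG and 170 in GFP.

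Among genes that are not protein-coding, 10 with a value of 100 or more and no shared reads were at least 4-fold higher in NEG. The largest ratios were those of Gm24222, an rRNA gene, and Gm25871, a miRNA gene, which start at 15412324 and 15413980 on chr8 (mm10). Both had 0 in MHC and 182 in NEG, at least 59.9-fold higher against the floor of 3 reads. In GFP they had 52.1 and 53.0. The 10 also include 3 lincRNA genes. Miat, known from heart and neural tissue, had 23.3 in MHC, 133 in NEG and 21.0 in GFP. Gm12349 had 22.3, 201 and 1.83, and Gm26633 had 63.8, 488 and 11.9 in the same order. Gm26633 ends at chr7:79053323 (mm10), beside Acan, which begins at 79053483 and was also higher in NEG. Whether the reads of Gm26633 belong to a separate transcript was not tested.

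Of the 821 genes higher in MHC, GFP was at least 2-fold below MHC in 560, within 2-fold in 213 and at least 2-fold above it in 48. Of the 745 genes higher in NEG, GFP was at least 2-fold below NEG in 412, within 2-fold in 234 and above in 99. All 17 cartilage and all 11 bone genes higher in NEG, and all 17 Serpina genes higher in MHC, had GFP at least 2-fold below the higher library. DNA replication and mitosis genes differed from that, since none of the 5 called higher in MHC had GFP at least 2-fold below MHC.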
